A study of Mus musculus with 2 samples.

Results

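Collagen genes were followed across the fibroblast-like cells, the tumour-like cell states and the macrophage-like cells of subcutaneous CT26 tumours. The members were chosen by name, as every listed gene whose symbol is Col, a number, a and a number with no suffix, which gave 44 of the 33696 genes in the matrices. CT26 is a murine colon carcinoma line, grown here in 6- to 8-week-old male BALB/c mice. The untreated group (UT) carried tumours and received nothing else, and the treated group (BUP) received BUP-Gel, a hydrogel that releases the local anesthetic bupivacaine at the tumour. No gel without the drug was analysed here, so the drug and its carrier cannot be told apart, and the day of harvest was not given in the sources used here. Each group was 1 library made from 3 pooled tumours, after live CD45+ and CD45- cells had been sorted and mixed again at a set ratio. With 1 library a group there is no replicate check, so no test was run, and every interval below is a 95% interval that covers counting error only.

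Collagens are the main structural proteins of the extracellular matrix, and each molecule is a helix wound from several chains. Type I collagen, from Col1a1 and Col1a2, builds the banded fibrils of connective tissue together with types III and V, type VI forms beaded filaments beside them, and type IV forms the sheet of basement membranes. FACIT collagens such as types XII and XIV sit on the surface of fibrils, and the multiplexins (types XV and XVIII) lie at basement membranes. Fibroblasts are the best known source of fibril-forming collagen in tumours.

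After the filter on cells, the UT library held 7163 cells and the BUP library 6776, from 83228442 and 89918925 unique molecular identifiers (UMIs, 1 for each captured RNA molecule), and 68 of the kept barcodes occurred in both libraries. Clusters were built without the collagen genes among the variable genes. The fibroblast-like class held 79 cells, 15 from UT and 64 from BUP, and carried Lum at 1072, Mmp2 at 2306, Postn at 1061 and Pdgfra at 344 CPM, which is UMIs scaled to 1000000 UMIs of the class. All 13 fibroblast markers were above 10 CPM in it. Of 6 endothelial genes, Pecam1, Cdh5, Kdr and Emcn were at 0 UMIs, and the list summed to 73.3 CPM with 1 over 10 CPM. Of 6 pericyte genes only Rgs5 was at 0 UMIs, and the list summed to 27.3 CPM with 1 over 10 CPM. The tumour-like clusters were told apart by rule. In the Xkr4 and Mir100hg class both genes were over 5-fold the level of the other tumour-like cells. In the Krt20 and Esm1 class each of 8 cell cycle genes was over 2-fold the largest non-immune cluster. The Ogn and Aspn class was the rest. Named after leading genes, these classes held 2377 Ogn and Aspn cells (622 UT, 1755 BUP), 1181 Krt20 and Esm1 cells (503 UT, 678 BUP) and 210 Xkr4 and Mir100hg cells (93 UT, 117 BUP). Their summed level of 4 Y-linked genes, which cells of the male host express, was 4.15, 6.08 and 20.8 CPM against 123 CPM in the fibroblast-like cells. In the Ogn and Aspn cells the epithelial genes Krt19 and Epcam were at 0 and 0.0263 CPM, and Tm4sf1 at 770 CPM. The name tumour-like thus does not rest on these epithelial genes. It required a low Y-linked level and at least 3 of 11 markers, which were keratins, Epcam, Tm4sf1, Esm1, Nppb, Ogn and Aspn. The Ogn and Aspn cluster met 4 of them. Ogn and Aspn are among its leading genes and were listed with earlier results of these data known, so they give the name no independent support. The sources used here do not say whether CT26 cells carry a Y chromosome. The 13 fibroblast markers summed to 1072 CPM in the Ogn and Aspn cells, with 4 over 10 CPM and none at 0. The paper classed its cycling non-immune cluster as proliferating tumour cells and saw fibroblast-associated transcripts in other non-immune clusters. Its labels may differ from those used here, and the clusters were not matched. Summed over 8 cell cycle genes, the Krt20 and Esm1 cells stood at 819 CPM and the Ogn and Aspn cells at 110 CPM. The rule for the Krt20 and Esm1 class required such a gap, so these sums only describe the classes. The Xkr4 and Mir100hg cells had a median ribosomal share of 2.05% of UMIs in UT and 2.04% in BUP, with mitochondrial shares of 6.75% and 8.31%, which sets them apart from the other tumour-like cells in RNA quality as well. Macrophage-like cells were 2312 Cxcl3 and Thbs1 cells and 1565 C1q cells, and 1316 T-like cells served as the class in which collagen UMIs were read as background.

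Fibroblast-like cells held by far the densest collagen RNA. Summed over the 44 genes, collagen made up 32707 CPM in the fibroblast-like cells, 1625 CPM in the Ogn and Aspn cells, 909 CPM in the Krt20 and Esm1 cells, 2823 CPM in the Xkr4 and Mir100hg cells and 35.9 CPM in the macrophage-like cells, against 34.0 CPM in T-like cells. The fibroblast-like sum was thus 20.1-fold that of the Ogn and Aspn cells over both libraries. Of the 44 members, 25 reached 50 UMIs in at least 1 class, and among these 22 were highest in fibroblast-like cells, 3 in a tumour-like class and 0 in macrophage-like cells. Members such as Col12a1 reached 50 UMIs in the fibroblast-like class only, so the limit itself set part of this count. Col6a6 and Col20a1 reached it in macrophage-like cells only, and counted as highest in fibroblast-like cells on 13 and 5 UMIs. Libraries from the 5′ end count a molecule once whatever its length, so levels of different genes were set side by side without dividing by gene length.

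The fibril-forming chains led the fibroblast-like cells. Col3a1, the single chain of type III collagen, stood at 15224 CPM in UT (14779 to 15678) and 8037 CPM in BUP (7890 to 8185), and every fibroblast-like cell carried it. Col1a1 stood at 12267 CPM in UT (11868 to 12676) and 5674 CPM in BUP (5551 to 5799), and its partner Col1a2 at 7941 CPM (7621 to 8271) and 3895 CPM (3794 to 3999). All 3 genes were higher in the UT library. Col5a2, a chain of the type V collagen that sits inside type I fibrils, was at 2333 CPM (2161 to 2515) in UT and 1809 CPM (1740 to 1880) in BUP. Its partners Col5a1 and Col5a3 stood at 1156 and 698 CPM over both libraries. Col12a1, a FACIT chain, was at 3375 CPM (3168 to 3593) in UT and 2828 CPM (2742 to 2917) in BUP, next in level after the type I and III chains. Among the beaded filament chains Col6a3 stood at 1166 CPM in UT (1046 to 1297) and 1180 CPM in BUP (1124 to 1238), so the libraries lay within each other's interval, and Col6a2 and Col6a1 were close to it at 1036 and 997 CPM. Lower still came the multiplexin Col15a1 at 659 CPM, the basement membrane chains Col4a1 and Col4a2 at 362 and 255 CPM, Col8a1 at 205 CPM, Col14a1 at 156 CPM, Col16a1 at 132 CPM, the transmembrane Col23a1 at 125 CPM, the anchoring fibril gene Col7a1 at 94.2 CPM, Col18a1 at 86.1 CPM, Col27a1 at 53.5 CPM and Col24a1 at 32.0 CPM. The 11 fibrillar genes made up 74.8% of the collagen UMIs of these cells (binomial interval 74.5% to 75.2%).

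Tumour-like cells carried a different mixture. In the Ogn and Aspn cells Col1a2 led at 739 CPM in UT (722 to 756) and 630 CPM in BUP (621 to 639), followed by Col3a1 at 207 CPM (198 to 216) and 191 CPM (186 to 196). Col4a1, which builds basement membrane, was next at 115 CPM (109 to 122) in UT and 142 CPM (137 to 146) in BUP. Col4a5, the X-linked basement membrane chain, stood at 107 CPM (101 to 114) and 111 CPM (107 to 115), at which the libraries did not differ beyond counting error. Col8a1, a short network-forming chain, was at 114 CPM (108 to 121) in UT and 90.9 CPM (87.4 to 94.5) in BUP, and Col6a1 at 97.8 CPM (91.7 to 104) and 96.0 CPM (92.4 to 99.6). Col4a2 (81.5 CPM), Col5a1 (73.3 CPM), Col16a1 (66.8 CPM), Col1a1 (54.5 CPM), Col18a1 (30.6 CPM), Col6a2 (13.4 CPM), Col6a3 (2.28 CPM) and Col10a1 (1.37 CPM) completed the 14 members with 50 UMIs or more. Fibrillar genes made up 60.6% of the collagen UMIs (60.2% to 60.9%) and the 6 type IV chains 20.2% (19.8% to 20.5%), compared with 1.9% (1.79% to 2.01%) for type IV in the fibroblast-like cells. The leading levels were far above the T-like background, at which Col1a2 stood at 8.33 CPM, Col3a1 at 3.24 CPM and Col1a1 at 0.740 CPM.

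The distance between fibroblast-like and Ogn and Aspn cells differed widely from gene to gene. For 7 genes the level in the Ogn and Aspn cells could not be told apart from the T-like background, since the intervals overlapped. Col12a1 was at 0.683 CPM (0.446 to 1.00) in the Ogn and Aspn cells and 0.648 CPM (0.260 to 1.33) in T-like cells, and Col23a1 at 0.971 CPM (0.684 to 1.34) and 1.2 CPM (0.641 to 2.06). The others were Col5a2, Col15a1, Col14a1, Col5a3 and Col7a1, at 0.236 to 1.26 CPM in the Ogn and Aspn cells. The ratios of fibroblast-like cells over these levels, which ran from 129 for Col23a1 to 4280 for Col12a1, are therefore ratios over background, and the genes were not ranked by them. Among members above that background, Col6a3 was 516-fold (416 to 647) and Col1a1 125-fold (119 to 131) higher in fibroblast-like cells. Col27a1 had 92 UMIs in the fibroblast-like cells and 0 in the Ogn and Aspn cells, which allows a level of up to 0.308 CPM for UT or 0.106 CPM for BUP. The gap was narrower for Col6a2 (77.2-fold), Col3a1 (47.5-fold), Col24a1 (46.9-fold), Col5a1 (15.8-fold) and Col6a1 (10.3-fold). It was small for Col1a2 (6.96-fold, 6.79 to 7.14), Col4a2 (3.12-fold), Col18a1 (2.81-fold), Col4a1 (2.69-fold), Col8a1 (2.11-fold) and Col16a1 (1.98-fold). Col4a5 ran the other way and was 62.9-fold higher in the Ogn and Aspn cells (21.5 to 305), since the fibroblast-like cells held only 3 of its UMIs.

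**Figure D1:**
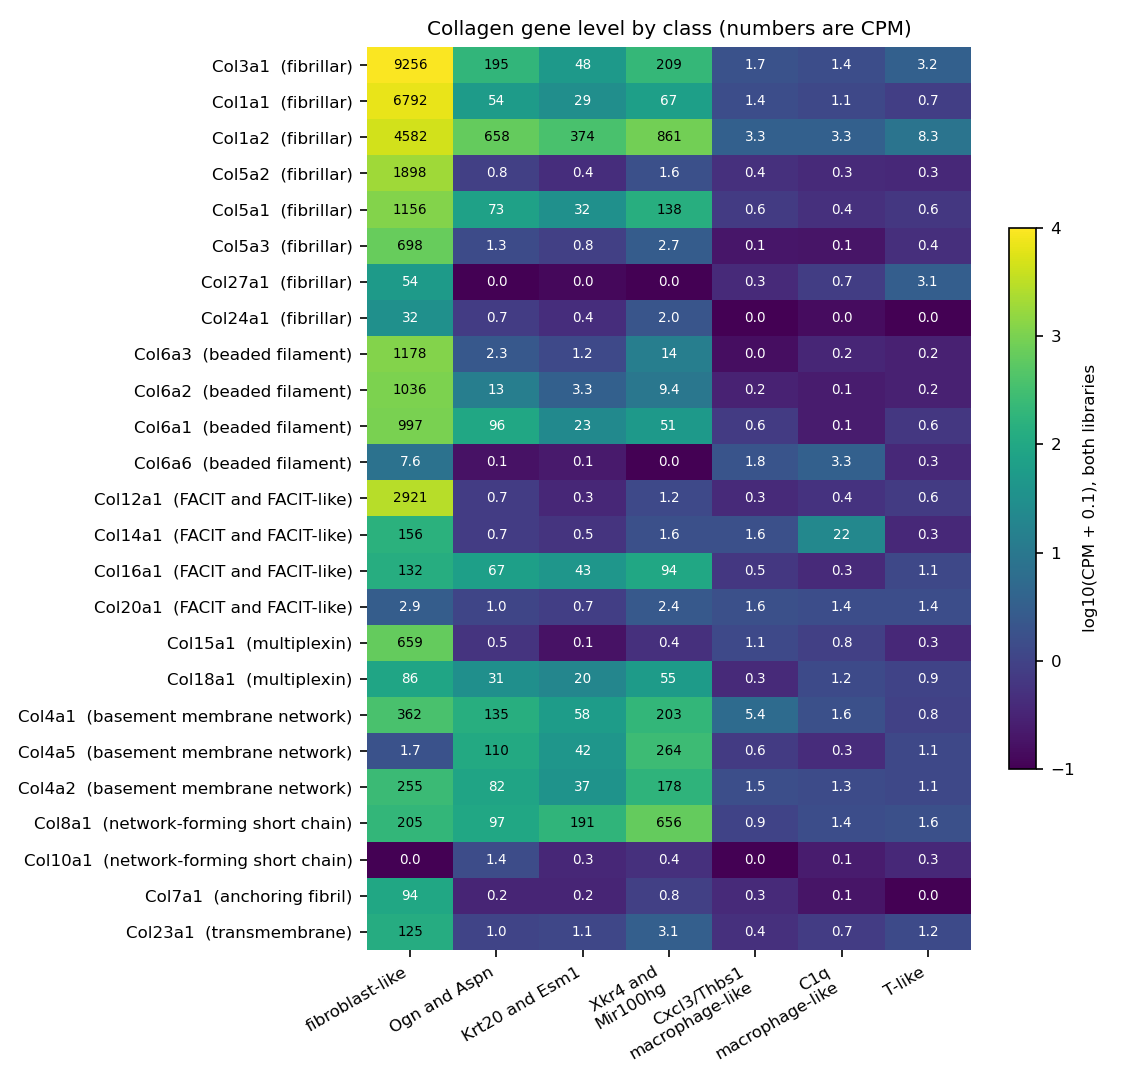
Heat map of the level of the 25 collagen genes with at least 50 UMIs in a class (rows, with their type) in 7 classes of cells (columns), both libraries together. Each cell prints the CPM and the colour is log10(CPM + 0.1); the fibroblast-like column is brightest for 22 of the 25 genes, while Col4a5 and Col8a1 peak in the Xkr4 and Mir100hg column at 264 and 656 CPM.

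The cycling Krt20 and Esm1 cells had lower levels than the Ogn and Aspn cells for nearly every well measured member. Col1a2 was at 375 CPM (366 to 384) in UT and 373 CPM (364 to 381) in BUP, 1.76-fold below the Ogn and Aspn cells. Col4a1 was at 50.2 CPM (47.0 to 53.6) and 64.5 CPM (61.1 to 68.0), Col3a1 at 42.8 CPM (39.8 to 46.0) and 53.1 CPM (50 to 56.3), Col16a1 at 37.0 CPM (34.2 to 39.9) and 48.4 CPM (45.5 to 51.5) and Col4a5 at 39.6 CPM (36.7 to 42.6) and 43.5 CPM (40.7 to 46.4), in UT and BUP respectively. Relative to the Ogn and Aspn cells these levels were 2.33-fold, 4.03-fold, 1.55-fold and 2.63-fold lower with both libraries together. Col6a1 (4.13-fold), Col6a2 (4.02-fold), Col5a1 (2.32-fold), Col4a2 (2.22-fold), Col1a1 (1.88-fold) and Col18a1 (1.53-fold) were lower too. Col8a1 was the exception at 202 CPM (195 to 208) in UT and 182 CPM (176 to 188) in BUP, 1.97-fold higher than in the Ogn and Aspn cells (1.89 to 2.05), and the 3 short network-forming chains made up 21.1% of collagen UMIs (20.6% to 21.5%) against 6.05% (5.86% to 6.24%). Median depth also differed, with 33493 (UT) and 30059 (BUP) UMIs per Krt20 and Esm1 cell against 14829 and 14909 per Ogn and Aspn cell. The part of depth in these differences of CPM was not tested.

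In the Xkr4 and Mir100hg cells Col1a2 stood at 890 CPM (842 to 940) in UT and 824 CPM (771 to 880) in BUP, and Col8a1 at 666 CPM (625 to 710) and 641 CPM (595 to 690), 6.76-fold above the Ogn and Aspn cells. Col4a5 reached 240 CPM (215 to 266) and 297 CPM (265 to 331), its highest level in any class. Col3a1 was at 178 CPM (157 to 201) and 250 CPM (221 to 282), Col4a1 at 180 CPM (159 to 204) and 232 CPM (204 to 262) and Col4a2 at 152 CPM (133 to 174) and 212 CPM (186 to 241). These 3 genes were higher in BUP with intervals that did not overlap. Col5a1 (138 CPM), Col16a1 (94.3 CPM), Col1a1 (66.8 CPM), Col18a1 (54.6 CPM) and Col6a1 (51.5 CPM) were the other members with at least 50 UMIs. The summed level of 11 macrophage markers in these cells was 1381 CPM, against 290 CPM in the Ogn and Aspn cells, and its part in the collagen values was not tested. Col4a5 spans 214 kb and Col8a1 130 kb of the genome. Whether reads in introns were counted is not stated in the sources used here. The part of introns and of the low ribosomal share of this class in these levels was not tested.

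Chains that are assembled into one molecule were not matched in the tumour-like cells. Most type I collagen is wound from both Col1a1 and Col1a2 chains, and in the fibroblast-like cells the UMI ratio of Col1a1 to Col1a2 was 1.54 (1.47 to 1.63) in UT and 1.46 (1.41 to 1.51) in BUP. In the Ogn and Aspn cells the ratio was 0.0824 (0.0757 to 0.0897) in UT and 0.0830 (0.0786 to 0.0875) in BUP, so that Col1a2 was 12.1-fold more abundant than its partner. The ratio was close to this in the Krt20 and Esm1 cells (0.0774) and in the Xkr4 and Mir100hg cells (0.0775), and the 2 libraries gave the same picture in each tumour-like class. Per cell, Col1a2 without any Col1a1 UMI was seen in 54.1% of Ogn and Aspn cells and Col1a1 without Col1a2 in 0.337%, while all 79 fibroblast-like cells held both. After each cell was thinned to 2000 UMIs, which puts cells at equal depth, the shares were 60.4% and 2.05% in the Ogn and Aspn cells, and 94.9% of fibroblast-like cells still held both.

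Type V and type VI collagen showed the same split. Col5a1 was 0.703 (0.624 to 0.791) of Col5a2 in UT and 0.584 (0.548 to 0.623) in BUP in the fibroblast-like cells, whereas in the Ogn and Aspn cells it exceeded Col5a2 by 114-fold (51.9 to 310) in UT and 87.9-fold (58.9 to 138) in BUP. Col5a2 itself was there at a level not told apart from the T-like background, at 6 and 24 UMIs, so these are ratios over background. Col6a1 and Col6a2 were level in the fibroblast-like cells, with a ratio of 0.962 (0.900 to 1.03), and 7.19 (6.55 to 7.90) in the Ogn and Aspn cells. Col6a3, the longest type VI chain, was 1.18 of Col6a1 (1.11 to 1.26) in the fibroblast-like cells and 0.0237 (0.0189 to 0.0293) in the Ogn and Aspn cells. In the Xkr4 and Mir100hg cells Col6a3 to Col6a1 was 0.0685 in UT, from 5 Col6a3 UMIs, and 0.517 in BUP, from 30. The chains of basement membrane collagen behaved differently, since Col4a1 to Col4a2 was 1.42 (1.26 to 1.61) in the fibroblast-like, 1.66 (1.58 to 1.73) in the Ogn and Aspn, 1.58 (1.48 to 1.69) in the Krt20 and Esm1 and 1.14 (1.00 to 1.30) in the Xkr4 and Mir100hg cells. Col4a5 was not accompanied by Col4a6, the neighbouring type IV gene on the X chromosome, with 4181 UMIs against 12 in the Ogn and Aspn cells (348-fold, 199 to 675).

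**Figure D2:**
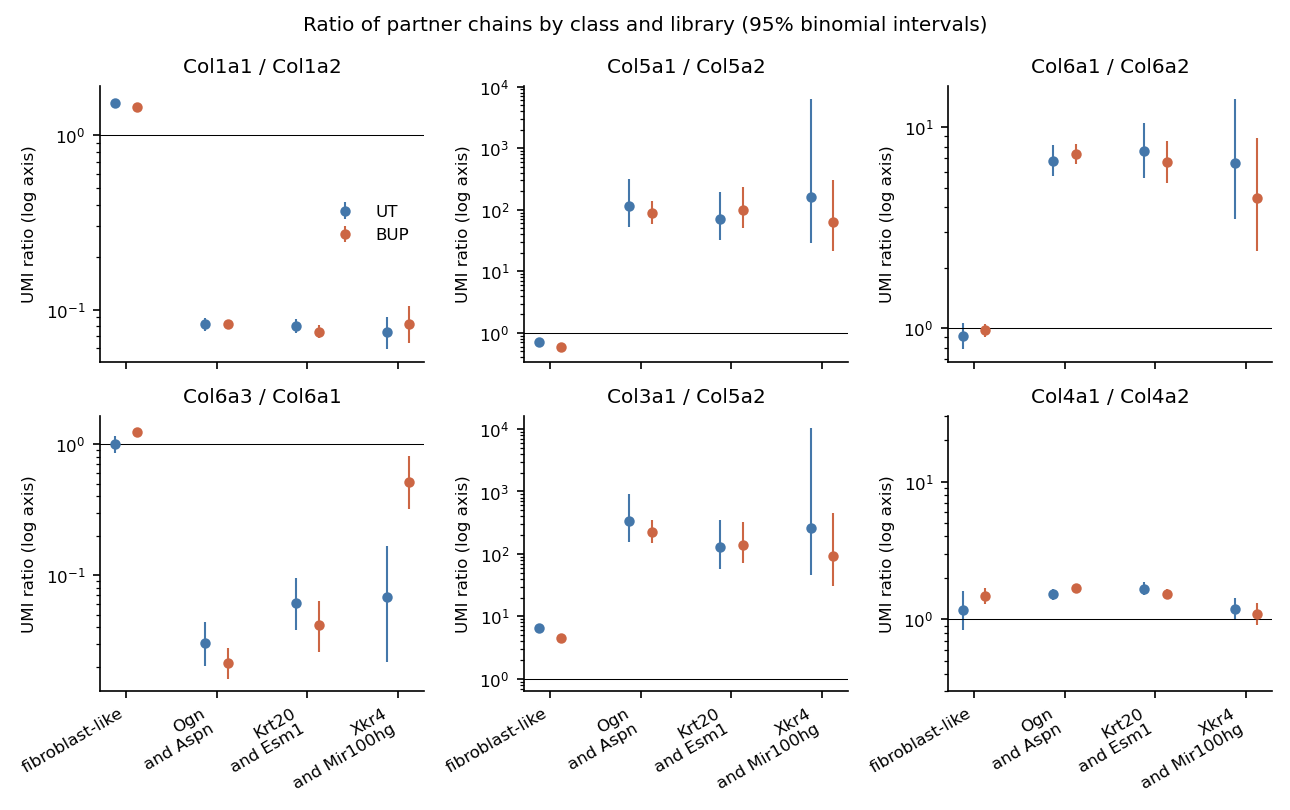
UMI ratio of 6 pairs of collagen genes (y axes, log scale) in the fibroblast-like and the 3 tumour-like classes (x axes), with UT and BUP as separate points and 95% intervals for counting error as bars; the line marks a ratio of 1. Col1a1 to Col1a2 lies near 1.5 in fibroblast-like cells and near 0.08 in each tumour-like class, while Col4a1 to Col4a2 stays between 1.09 and 1.7 in all 4 classes.

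The genome places these genes differently. On GRCm39 with the GENCODE M39 annotation, Col1a1 lies on chromosome 11 (94827050 to 94843868, plus strand, 51 exons) and Col1a2 on chromosome 6 (4504814 to 4541555, plus strand, 52 exons). Col5a1 lies on chromosome 2 (27776397 to 27929526, plus strand), and Col5a2 on chromosome 1 (45412554 to 45542442, minus strand), where its 3′ end faces that of Col3a1 (45350698 to 45395840, plus strand) across 16713 bases. These tail to tail neighbours differed in the tumour-like cells, since Col3a1 exceeded Col5a2 by 4.88-fold (4.70 to 5.07) in the fibroblast-like cells and by 248-fold (173 to 367) in the Ogn and Aspn cells, where Col5a2 was not told apart from background. Col4a1 and Col4a2 stand head to head on chromosome 8, where their first parts overlap and their canonical starts lie 317 bases apart, and Col4a5 and Col4a6 stand head to head on the X chromosome with starts 1282 bases apart. The first of these pairs had like levels in all 4 classes and the other did not. Reads from overlapping strands of Col4a1 and Col4a2 could be told apart only if the counting used strand, which the sources used here do not state.

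The 250 bases upstream of the canonical start of 5 fibrillar genes are printed because these genes make up the pairs that split between fibroblast-like and tumour-like cells. They come from GRCm39, read 5′ to 3′ on each gene's own strand: Col1a1 chr11:94826800-94827049 (plus), Col1a2 chr6:4505243-4505492 (plus), Col3a1 chr1:45350448-45350697 (plus), Col5a1 chr2:27776147-27776396 (plus) and Col5a2 chr1:45542443-45542692 (minus). Capitals mark every match to the motif CCAAT, to the motif TATAAA and to the motif GGGCGG, each searched on both strands, so that the reverse complement of a motif is marked too.
Col1a1: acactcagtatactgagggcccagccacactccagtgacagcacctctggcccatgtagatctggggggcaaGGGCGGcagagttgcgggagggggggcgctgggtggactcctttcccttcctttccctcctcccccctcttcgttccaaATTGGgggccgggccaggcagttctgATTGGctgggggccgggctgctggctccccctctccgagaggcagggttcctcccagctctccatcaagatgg
Col1a2: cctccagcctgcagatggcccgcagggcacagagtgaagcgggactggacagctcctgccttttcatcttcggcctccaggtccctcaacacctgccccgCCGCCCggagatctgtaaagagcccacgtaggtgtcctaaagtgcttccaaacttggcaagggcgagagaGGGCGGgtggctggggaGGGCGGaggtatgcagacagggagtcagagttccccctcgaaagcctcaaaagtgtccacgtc
Col3a1: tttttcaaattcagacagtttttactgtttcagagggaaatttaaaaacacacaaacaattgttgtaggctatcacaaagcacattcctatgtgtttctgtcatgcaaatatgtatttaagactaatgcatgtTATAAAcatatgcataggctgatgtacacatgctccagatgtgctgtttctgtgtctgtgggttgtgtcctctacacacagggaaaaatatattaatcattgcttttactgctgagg
Col5a1: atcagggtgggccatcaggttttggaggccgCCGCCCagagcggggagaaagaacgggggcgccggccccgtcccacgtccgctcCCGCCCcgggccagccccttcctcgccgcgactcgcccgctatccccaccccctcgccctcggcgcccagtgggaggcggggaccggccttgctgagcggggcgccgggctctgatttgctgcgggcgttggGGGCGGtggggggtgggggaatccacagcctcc
Col5a2: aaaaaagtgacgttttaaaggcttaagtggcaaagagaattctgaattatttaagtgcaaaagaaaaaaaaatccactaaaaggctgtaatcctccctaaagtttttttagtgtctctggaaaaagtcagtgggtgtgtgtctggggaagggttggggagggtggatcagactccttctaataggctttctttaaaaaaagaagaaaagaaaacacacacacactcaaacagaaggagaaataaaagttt
The window of Col1a1 held 2 CCAAT matches and 1 GGGCGG match, that of Col1a2 held 3 GGGCGG matches and no CCAAT, that of Col3a1 held 1 TATAAA match, that of Col5a1 held 3 GGGCGG matches, and that of Col5a2 held none of the 3 motifs. The GC content was 64.8%, 62.0%, 35.2%, 75.6% and 36.0% in this order. Of 21431 promoters of the same length, 36.6% held CCAAT, 11.9% TATAAA and 36.3% GGGCGG, and of the 44 collagen genes 15, 7 and 21 did. A match is a description of the letters only. Bases outside these windows were not searched, so a motif missing from a window may still lie near the gene's start. The windows of Col1a1 and Col1a2 thus do not compare their promoters as a whole. The annotated span of Col1a2 starts at 4504814, before its canonical start, so its window lies within that span.

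Although only 79 of 13939 kept cells were fibroblast-like, they supplied 27.6% of all collagen UMIs in UT (27.2% to 28.0%) and 37.4% in BUP (37.1% to 37.7%). A few cells set the UT value, since without the 5 cells with most collagen the shares were 9.85% in UT and 31.5% in BUP, and without the leading 33% of cells they were 9.85% and 19.2%. Tumour-like cells supplied 68.8% and 61.2%, macrophage-like cells 1.78% and 0.473%, and other cells the rest. These shares depend on the sort and on how many cells of each class were loaded, with fibroblast-like cells at 0.209% of kept cells in UT and 0.945% in BUP and tumour-like cells at 17.0% and 37.6%. Type I collagen was divided between the classes by chain. Of Col1a1 UMIs, 73.6% in UT and 78.7% in BUP came from fibroblast-like cells, whereas 85.7% and 82.1% of Col1a2 UMIs came from tumour-like cells. Col12a1 and Col5a2 were nearly all from fibroblast-like cells, with 97.5% and 95.9% in UT and 98.7% and 98.3% in BUP. Col4a5 (98.4% and 99.3%), Col8a1 (97.5% and 95.4%) and Col16a1 (95.6% and 93.3%) were nearly all from tumour-like cells. Col14a1 was the one gene with over 100 UMIs in both libraries for which macrophage-like cells were the leading source, at 44.9% in UT and 44.1% in BUP.

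**Figure D3:**
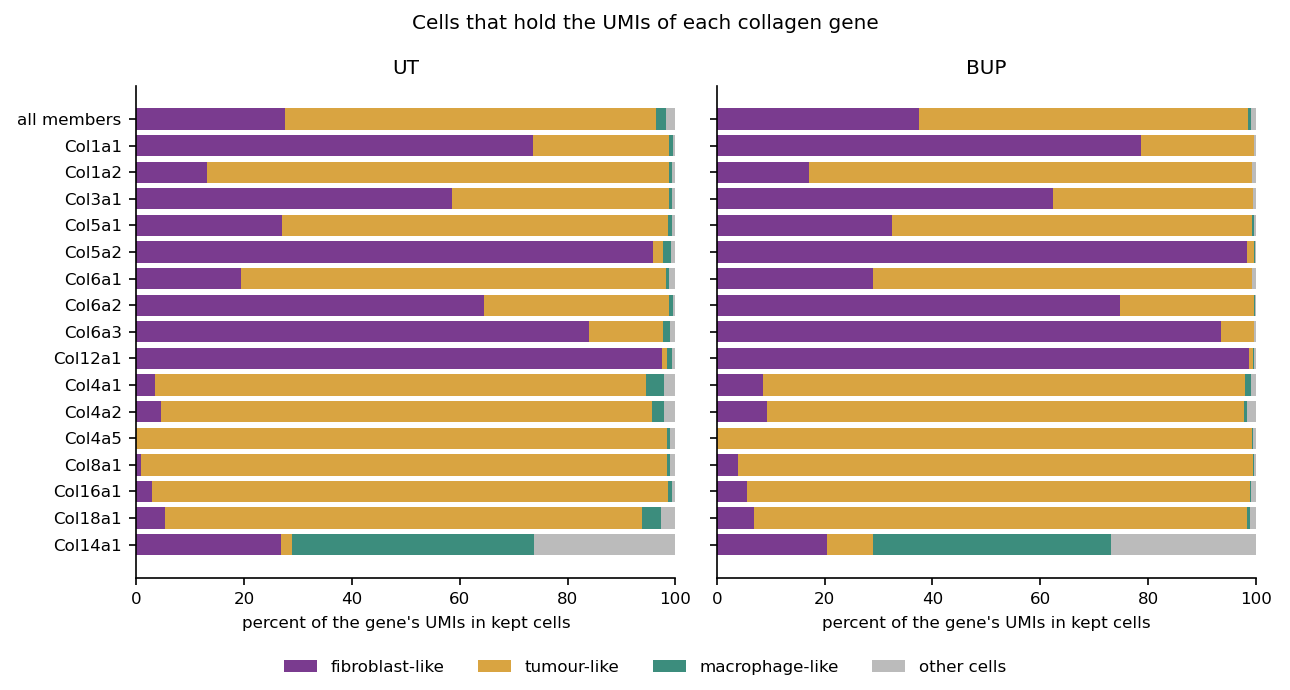
Share of the UMIs of all members and of 16 single collagen genes in kept cells (x axis, percent) that came from fibroblast-like, tumour-like, macrophage-like and other cells, as stacked horizontal bars with 1 bar a gene (y axis) and a panel for each library. Col1a1 is mainly fibroblast-like (73.6% and 78.7%) and Col1a2 mainly tumour-like (85.7% and 82.1%).

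Macrophages are not a usual source of fibrillar collagen, and 5 of the 8 members with at least 50 UMIs in the macrophage-like cells were near or below the T-like background. Col1a2, at 3.38 CPM in UT (2.72 to 4.16) and 3.1 CPM in BUP (2.25 to 4.16), and Col3a1, at 1.58 CPM (1.14 to 2.13) and 1.55 CPM (0.970 to 2.34), both lay below the T-like cells, which held 8.33 and 3.24 CPM. Col1a1 (1.27 CPM), Col4a2 (1.40 CPM) and Col20a1, at 1.32 CPM in UT (0.917 to 1.83) and 1.90 CPM in BUP (1.25 to 2.76), were within 2-fold of it. Shares of cells behaved alike, with a Col1a2 UMI in 2.73% of macrophage-like cells and 3.88% of T-like cells.

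Col14a1, Col6a6 and Col4a1 stood above that background. Col14a1, a FACIT chain, was at 12.0 CPM in UT (10.7 to 13.4) and 11.9 CPM in BUP (10.2 to 13.8) over the macrophage-like cells, and 456 of its 488 UMIs lay in the C1q cells, with 21.0 CPM in UT (18.7 to 23.5) and 23.9 CPM in BUP (20.3 to 28.0). This was 78.9-fold the T-like level, which rested on 3 UMIs (26.8 to 384), and 13.7-fold the level of the Cxcl3 and Thbs1 cells (9.57 to 20.3). A Col14a1 UMI was found in 20.8% of C1q cells, or 4.37% after thinning to 2000 UMIs, and the 5 cells with most held 5.48% of the UMIs. Col6a6, a type VI chain, was at 3.01 CPM in UT (2.39 to 3.74) and 1.76 CPM in BUP (1.14 to 2.6), 9.27-fold above T-like cells with 3 UMIs (3.08 to 45.7). Col6a6 overlaps Pik3r4 on the other strand, and whether their reads were kept apart was not stated. Col4a1 was at 3.01 CPM (2.39 to 3.74) and 4.29 CPM (3.28 to 5.51), 4.15-fold above T-like cells (2.12 to 9.26), and unlike Col14a1 it was 3.40-fold higher in the Cxcl3 and Thbs1 cells, at 5.4 CPM, than in the C1q cells (2.29 to 5.19). Median depth was 12358 and 11581 UMIs in C1q cells and 7246.5 and 6659.5 in T-like cells, in UT and BUP.

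Between the libraries, collagen was lower in the fibroblast-like cells of BUP. The sum was 49846 CPM in UT (49039 to 50664) and 29207 CPM in BUP (28927 to 29488), a log2 ratio of BUP to UT of −0.77 (−0.80 to −0.74). Of the 21 members with at least 50 UMIs in the class, 9 were at least 1.5-fold lower and 1 was at least 1.5-fold higher, where 17.2% and 15.3% of 5286 genes were. The median log2 ratio was −0.37 over these 21 members and 0.00 over all tested genes. Members passed the limit of 50 UMIs mostly through their own level in this class, so the count does not speak for all 44. The lower members were Col1a1 (−1.11, −1.17 to −1.06), Col1a2 (−1.03, −1.10 to −0.96), Col3a1 (−0.92, −0.97 to −0.87), Col5a1 (−0.63, −0.78 to −0.48), Col5a3 (−0.79, −0.98 to −0.60), Col7a1 (−0.78), Col14a1 (−3.58, −3.98 to −3.20), Col18a1 (−0.65) and Col24a1 (−1.01). Col15a1, the multiplexin, was the higher member, with 292 CPM in UT (233 to 361) and 734 CPM in BUP (690 to 779), a log2 ratio of 1.33 (1.01 to 1.67). Col12a1 (−0.26), Col5a2 (−0.37), Col6a1 (−0.28), Col6a2 (−0.38), Col6a3 (0.02), Col4a1 (0.35), Col4a2 (0.01), Col8a1 (0.11), Col16a1 (−0.32), Col23a1 (0.45) and Col27a1 (0.31) lay within 1.5-fold.

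The fibroblast-like difference rested on few cells. Collagen per 10000 UMIs of a cell had a median of 379 over the 15 UT cells, with a lowest of 103 and a highest of 1913, and of 236 over the 64 BUP cells, with a lowest of 34.0 and a highest of 1221. The ranges overlapped widely. In UT the 5 cells with most collagen held 71.3% of the collagen UMIs of the class, and 1 cell held 25.9%, whereas in BUP the 5 leading cells held 23.0%. Without the 1 leading cell of each library the log2 ratio of the sum was −0.63, without the leading 33% of cells of each it was −0.45, and without the 5 leading cells of each, which takes 5 of 15 UT cells but 5 of 64 BUP cells, it was 0.00, with 25455 CPM in UT and 25416 CPM in BUP. Under this last setting Col1a1, Col3a1, Col5a1 and Col18a1 changed sign, at 0.05, 0.15, 0.13 and 0.16, whereas over all settings Col14a1 lay between −3.96 and −3.05 and Col15a1 between 0.93 and 2.32. The 2 libraries' fibroblast-like cells also differed in other values, whose part in the collagen difference was not tested: 11 macrophage markers summed to 85.8 CPM in UT with 5 at 0 and to 502 CPM in BUP with none at 0, the median ribosomal share was 9.88% and 14.1%, and Malat1 stood at 11200 and 5207 CPM. Cells in the top 6% of Scrublet scores, which mark likely doublets, made up 0% of the UT and 18.8% of the BUP cells, and leaving them out gave a log2 ratio of −0.56.

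Col14a1 in the fibroblast-like cells lay in a few cells. It was at 655 CPM in UT (566 to 755) and 54.6 CPM in BUP (43.2 to 68.2). With a limit of 10 UMIs, set after the values were seen, 6 of the 15 UT cells held Col14a1 at 21 to 59 UMIs, and the other 9 held 0 to 2. In BUP 2 of 64 cells passed it, with 17 and 23 UMIs. In UT 5 of those 6 cells and 0 of the other 9 had 10 or fewer UMIs of Col12a1. Its median was 3.50 UMIs in the 6 cells and 88.0 in the other 9. Of the 6, 4 were among the 5 UT cells with most collagen per UMI. The 2 BUP cells over the limit also had 10 or fewer Col12a1 UMIs, but so did 9 of the 62 BUP cells below it. Low Col12a1 was thus not confined to cells with Col14a1 in BUP. Cells of 1 library are not replicates, and 3 tumours were pooled, so treatment and differences between single tumours cannot be told apart here.

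**Figure D4:**
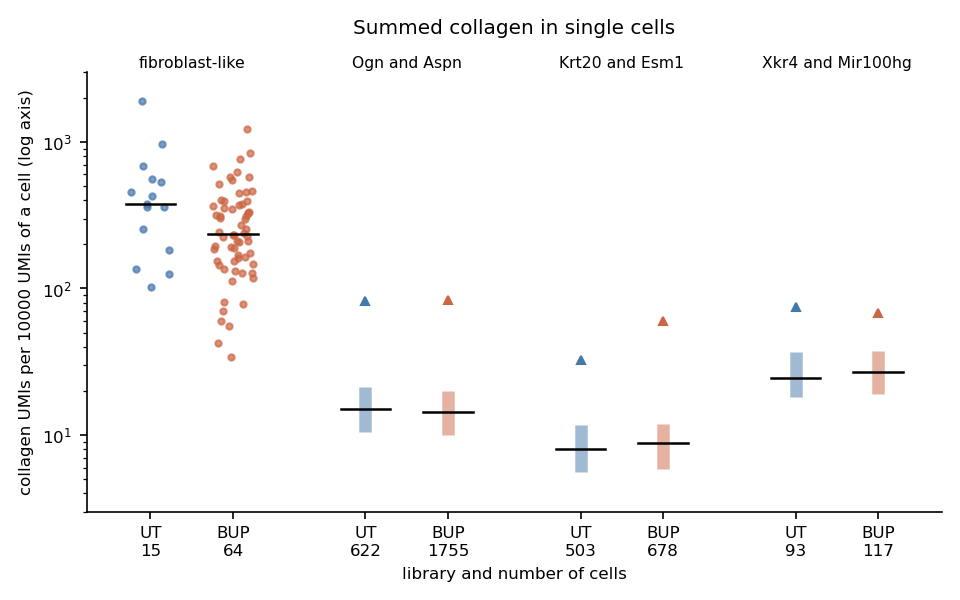
Collagen UMIs per 10000 UMIs of a cell (y axis, log scale) in UT and BUP for the fibroblast-like class, with 1 point for each cell and the median as a line, and for the 3 tumour-like classes, with the quartiles as bars, the median as a line and the highest cell as a triangle. The fibroblast-like medians are 379 and 236 with overlapping ranges, and the tumour-like medians differ little between the libraries.

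In the tumour-like cells the libraries were close. The collagen sum of the Ogn and Aspn cells was 1708 CPM in UT (1682 to 1734) and 1596 CPM in BUP (1582 to 1611), a log2 ratio of −0.10 (−0.12 to −0.07), that of the Krt20 and Esm1 cells was 879 (866 to 893) and 933 CPM (920 to 947), at 0.09 (0.06 to 0.12), and that of the Xkr4 and Mir100hg cells was 2699 (2615 to 2785) and 2985 CPM (2884 to 3089), at 0.15 (0.08 to 0.21). Of 14 members in the Ogn and Aspn cells 1 was at least 1.5-fold higher in BUP, where 1.24% of 12068 genes were, and 0 were at least 1.5-fold lower, where 3.69% were. That member was Col10a1, a short-chain collagen of growth cartilage, with 5 UMIs in UT and 47 in BUP, and the 5 cells with most held 69.2% of its UMIs. In the Krt20 and Esm1 cells 2 of 12 members were higher against a background of 2.23%, and 0 were lower against 3.21%. These were Col5a1, with 23.9 CPM in UT (21.7 to 26.3) and 38.2 CPM in BUP (35.6 to 40.9), at 0.68 (0.51 to 0.85), and Col6a2, with 2.62 and 3.94 CPM, at 0.59 (0.05 to 1.14). In the Xkr4 and Mir100hg cells 2 of 11 were higher against 5.6% and 0 were lower against 11.4%, and these were Col5a1, at 0.64 (0.32 to 0.95), and Col18a1, at 0.84 (0.33 to 1.35). After thinning Col5a1 stood at 0.38, under 1.5-fold, and Col18a1 at 0.64. Median UMIs of this class were 12499 in UT and 7613 in BUP, 5 erythrocyte genes summed to 5.53 CPM with 2 at 0 and to 1106 CPM with none at 0, 6 neutrophil genes to 84.3 and 10.9 CPM and 5 NK genes to 62.2 and 1.82 CPM, and the part of these in the collagen values was not tested. Col4a1 was higher in BUP in all 3 tumour-like classes, at 0.30 (0.20 to 0.39), 0.36 (0.24 to 0.48) and 0.36 (0.11 to 0.62), though within 1.5-fold.

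With the 3 tumour-like classes pooled, the Col8a1 level was 195 CPM for UT against 141 CPM for BUP (log2 ratio −0.47), although within the classes it was −0.33, −0.15 and −0.06. The Ogn and Aspn cells, which hold less Col8a1 than the other 2 classes, were 622 of 1218 tumour-like cells in UT and 1755 of 2550 in BUP. Values of tumour-like cells are therefore given within a class.

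In the macrophage-like cells the collagen sum was 35.3 CPM in UT (33 to 37.6) and 37.1 CPM in BUP (34.0 to 40.4), at 0.07 (−0.08 to 0.23), while the T-like cells stood at 29.6 and 37.2 CPM. Of 8 members with at least 50 UMIs 0 were at least 1.5-fold higher, where 3.59% of 11862 genes were, and 1 was lower, where 3.62% were. This was Col6a6, at −0.77 (−1.48 to −0.11). Col14a1 stood at −0.01 (−0.29 to 0.26). The mix of the macrophage-like classes differed between the libraries, with 1076 C1q and 1456 Cxcl3 and Thbs1 cells in UT and 489 and 856 in BUP. Within the C1q cells the sum stood at 0.13 (−0.07 to 0.34), Col14a1 at 0.18 (−0.11 to 0.47) and Col6a6 at −1.04 (−2.07 to −0.12). Within the Cxcl3 and Thbs1 cells the sum stood at 0.15 (−0.10 to 0.40) and Col6a6 at −0.26 (−1.35 to 0.78). That Col6a6 value came from 37 UMIs, under the minimum of 50, and its interval overlapped that of the C1q cells. Whether the macrophage-like classes differ in Col6a6 was therefore not settled and was not tested.

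**Figure D5:**
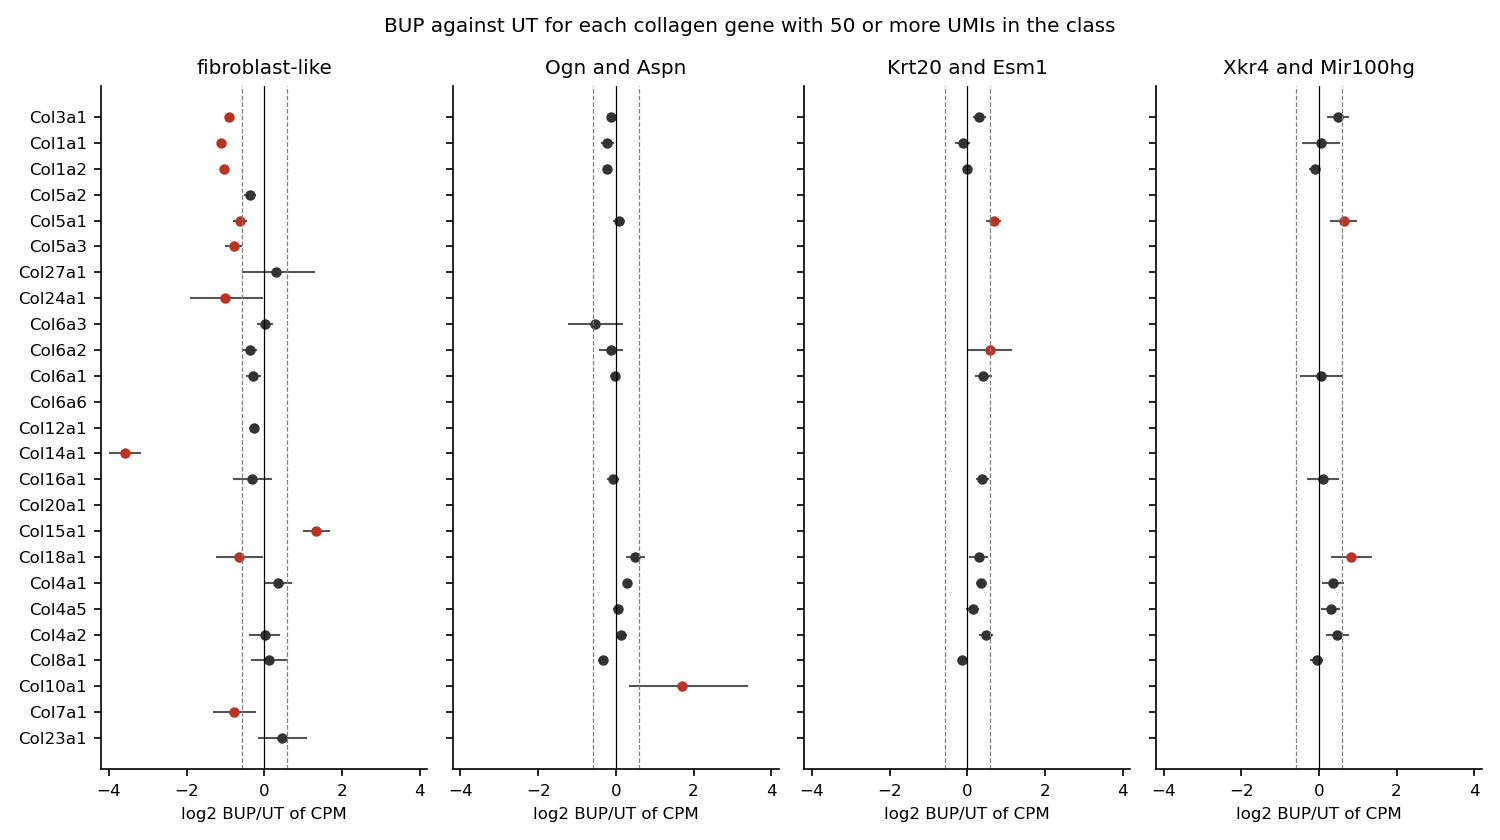
Log2 ratio of BUP to UT (x axis) for each collagen gene with at least 50 UMIs in the class (y axis), in the fibroblast-like and the 3 tumour-like classes, with 95% intervals for counting error as bars and red points past 1.5-fold. In the fibroblast-like panel 9 of 21 genes lie to the left and Col15a1 to the right, while the tumour-like panels hold 5 points past 1.5-fold, each of them to the right.

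Genes that fold, trim and crosslink collagen differed between the classes gene by gene, and those named here were chosen after their values were seen. Several folding genes were well above 100 CPM in both kinds of cell: Serpinh1, the collagen chaperone HSP47, was at 1223 CPM in fibroblast-like and 281 CPM in Ogn and Aspn cells, P4hb at 903 and 381 CPM, Ppib at 725 and 431 CPM and Hsp90b1 at 771 and 541 CPM. In contrast, the procollagen protease Adamts2 was at 864 CPM in fibroblast-like cells and 0.0788 CPM (3 UMIs) in the Ogn and Aspn cells. The crosslinking enzymes Loxl1 (758 and 0.735 CPM), Loxl2 (532 and 0.473 CPM) and Lox (466 and 0.0525 CPM) showed the same gap, as did the matrix proteins Tnc (4272 and 0.473 CPM) and Postn (1061 and 0.158 CPM) and the gelatinase Mmp2 (2306 and 0.578 CPM). Loxl3 (155 and 101 CPM) did not, and Pcolce, which enhances removal of the C-terminal propeptide, was higher in the Ogn and Aspn cells (609 and 868 CPM). The clusters were built on variable genes that could include these genes, so the gaps describe the classes.

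Between the libraries, the fibroblast-like cells held 1 of 20 folding genes past 1.5-fold higher in BUP (P4ha2, 0.73, −0.02 to 1.58) and 0 lower, with Serpinh1 at 0.07 (−0.10 to 0.24). Of 10 trimming and crosslinking genes, Loxl3 was higher (0.80) and Loxl2 (−0.98, −1.19 to −0.76) and Pcolce2 (−1.10) were lower, while Adamts2 stood at 0.02, Loxl1 at 0.14 and Pcolce at −0.04. Of 4 measured collagen receptors, Itga1 was higher (0.81, −0.32 to 2.18) and Ddr2 lower (−0.76), with Itgb1 at −0.18 and Mrc2 at −0.35. Of 11 genes of collagen degradation and its inhibitors, Ctsk, a collagen-cleaving cathepsin, was higher (0.80, 0.57 to 1.04), and Fap (−1.69), Reck (−1.17) and Mmp3 (−0.81) were lower, while Timp1 (0.18), Ctsl (0.39), Mmp2 (0.32) and Ctsb (0.27) lay within 1.5-fold. The TGF-beta pathway, which drives collagen genes in fibroblasts, had 1 of 15 genes higher (Tgfb1, 0.86) and 6 lower, among them Ltbp1 (−2.80), Ltbp2 (−1.25) and Tgfbr2 (−1.18), with its target gene Ccn2 at −0.03 (−0.50 to 0.47). Of 18 matrix proteins that bind collagen, Bgn was higher (0.65) and 8 were lower, with the widest ratios for Eln (−3.53), Aspn (−3.37) and Ogn (−2.25), while Dcn (−0.05), Fn1 (0.03) and Sparc (−0.17) lay within it. The share of lower genes was 44.4% of the matrix, 40% of the TGF-beta, 27.3% of the degradation, 25% of the receptor, 20% of the trimming and crosslinking and 0% of the folding list, beside 17.2% of all genes, and the share of higher genes was 5.56%, 6.67%, 9.09%, 25%, 10% and 5% in the same order, beside 15.3%. These counts came from the same 15 UT cells as the collagen values. Ogn and Aspn are also among the 11 tumour-like markers, whose sum in the fibroblast-like cells was 521 CPM in UT with 7 at 0 and 230 CPM in BUP with 2 at 0, and the part of tumour RNA in these values was not tested. In the Ogn and Aspn cells the same lists held 1 of 75 tested genes past 1.5-fold higher in BUP (P3h2) and 4 lower (Lum at −2.46, Thbs2 at −0.77, Itga1 and Adamts14), close to the 1.24% and 3.69% of all genes.

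The remaining 19 members did not reach 50 UMIs in any of these classes. Over all kept cells Col4a4 had 134 UMIs, Col8a2 109, Col11a2 104, Col9a3 83, Col17a1 75, Col28a1 39, Col19a1 28, Col11a1 17, Col25a1 16, Col4a6 15, Col6a5 12, Col6a4 10, Col22a1 7, Col9a2 6, Col2a1 4, Col4a3 2, Col13a1 1 and Col26a1 1 UMI, and Col9a1 had 0. The cartilage genes Col2a1, Col9a1 and Col11a1 were thus at or near the limit of detection. Of Col8a2 86.2% and of Col11a2 57.7% of UMIs came from cells outside the fibroblast-like, tumour-like and macrophage-like classes. At this depth a gene with 0 UMIs in the fibroblast-like cells may still reach 10.3 CPM in the UT library or 2.1 CPM in that of BUP.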

How the data were processed

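Cells of the UT and BUP libraries were measured with droplet 5′ single-cell RNA sequencing. The deposited matrices hold raw UMI counts that the authors made with Cell Ranger 8.0.1 on GRCm39; the submitters' processing notes also name Seurat 5.0.1. The sort ratio of CD45+ to CD45- cells was 4 to 1 per the labels, while the paper's methods give a lower ratio.

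A barcode was kept if it held over 100 UMIs and less than 20% of them were mitochondrial. Cells of both libraries were clustered without integration in Seurat 5.3.0 under R 4.3.3, on 2000 variable genes less the members (1976 left), 20 principal components and resolution 0.5, which gave 18 clusters. The rules for turning clusters into classes were made with the clusters in view. The members and gene lists were chosen with earlier results of these data known, 4 tumour markers (Esm1, Nppb, Ogn, Aspn) among them. Scrublet in scanpy 1.11.5 scored doublets, none were removed in the reported values, and leaving out the top 6% was an alternative. UMIs were summed per class and library and divided by the class total (CPM). Levels have exact Poisson intervals, ratios exact conditional and shares exact binomial 95% intervals. Each covers counting error only; there was no test because each group was 1 library. A fold was counted past 1.5 in genes with 50 UMIs or more over both libraries. A count of 0 allows 3 counts. Detection was also taken after thinning cells to 2000 UMIs. Every member with 50 UMIs in a class was named, the 6 with most UMIs per class with intervals, and the others by their UMIs. From other lists the 4 genes with most UMIs and up to 3 past the fold with the widest ratio were taken, and the genes set between classes were chosen after their values were seen. Positions and upstream bases came from GRCm39 with GENCODE M39. Scripts ran under Python 3.11.15 with scipy 1.17.1 for the intervals, numpy 2.4.6, matplotlib 3.10.9 and pandas 2.3.3.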

Additional observations from a re-analysis of the deposited data

Results flagged for a closer look

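For a pair of genes the ratio of BUP to UT passed 1.5-fold in opposite directions in fibroblast-like cells and a tumour-like class. Members with opposite signs that did not pass this fold on both sides, Col3a1 among them, are not listed here. Col18a1 stood at 0.84 in the Xkr4 and Mir100hg cells and at −0.65 in the fibroblast-like cells. Col5a1 stood at 0.68 in the Krt20 and Esm1 cells and 0.64 in the Xkr4 and Mir100hg cells, against −0.63 in the fibroblast-like cells. Each class has 1 library a group, so the difference was not tested, and the fibroblast-like values of both genes changed sign without the 5 cells of each library with most collagen, to 0.16 for Col18a1 and 0.13 for Col5a1.

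Collagen UMIs also occurred in cells outside the comparisons. Col17a1, a transmembrane collagen, was at 29.5 CPM in a cluster led by Siglech and Klk1, from 20 UMIs in 10 of 82 cells, against 0.463 CPM in T-like cells. Col14a1 was at 14.7 CPM, Col4a1 at 2.21 CPM and Col6a6 at 1.51 CPM in a cluster of 1000 cells with C1q genes that was left out of the macrophage-like class as a mixture. Col8a2 was at 6.89 CPM in NK-like cells and 2.31 CPM in T-like cells. In barcodes removed for mitochondrial UMIs the collagen sum was 174 CPM in UT and 910 CPM in BUP, from 103 and 595 UMIs. All kept cells together stood at 638 and 1248 CPM. The removed barcodes were not assigned to classes, so their mix of cells is not known.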

How the results depend on the processing

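The log2 ratio of the collagen sum in fibroblast-like cells (−0.77) was −0.73 with cells thinned to 2000 UMIs, −0.74 with cells weighted equally, −0.56 without the cells with the highest Scrublet scores, −0.63 without the 1 cell of each library with most collagen, −0.45 without the leading 33% of cells and −0.0022 without the leading 5. Without the leading 5 the counts of fibroblast-like members past 1.5-fold were 2 higher and 2 lower, Col1a1, Col3a1, Col5a1 and Col18a1 reversed to 0.045, 0.15, 0.13 and 0.16, and the Krt20 and Esm1 cells had 1 higher member. Col18a1 also reversed to 0.19 without the leading 33%. In the Ogn and Aspn cells the sum (−0.10) was −0.056 at resolution 1.0, −0.056 after thinning and −0.026 under median-ratio scaling, which gave 0.135 in the Krt20 and Esm1 cells. The share of collagen UMIs from fibroblast-like cells (UT 27.6%, BUP 37.4%) was 28.0% and 32.7% after thinning, 22.0% and 35.6% without 1 cell, 9.85% and 31.5% without 5 cells, 9.85% and 19.2% without 33%, and 29.6% in UT without high Scrublet scores. The fold of the sum over the Ogn and Aspn cells (20.1) was 19.4 with a stricter filter on cells, 19.6 at resolution 1.0, 20.5 with 30 principal components, 20.6 after thinning, 15.9 without 5 cells, 18.4 without 1 cell and 22.4 without high Scrublet scores. With a minimum of 20 UMIs there was 1 lower member in the Ogn and Aspn, 4 higher in the Xkr4 and Mir100hg and 2 higher and 2 lower in the macrophage-like cells. With 200 UMIs these classes had 0 higher, 1 higher and 0 lower, and the Krt20 and Esm1 cells 1 higher. Median-ratio scaling gave 1 higher in macrophage-like cells. The cause was not tested, beyond the fewer cells or genes each setting left. Over the 16 results past 1.5-fold, 148 of 153 alternative values had the same sign and 123 were still past it. Each result is 1 member in 1 class, so Col5a1 and Col18a1 count more than once. Leaving out 1 cell or 33% of cells, leaving out 5 cells for the counts of members, and equal weights were added after seeing the data, as were all alternatives for the fold between classes. No paired analysis was possible because each group was 1 library.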
